A study of Danio rerio with 3 samples.

Results

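Skin and epithelial genes were followed on 3 arrays of brain RNA from adult zebrafish (Danio rerio), as a set of keratins, desmosome and other junction genes, epithelial regulators, surface proteins, proteases with their inhibitors, basal attachment genes and secretory genes. The set was a list of 50 gene names. On the array 46 of them were found among 19260 named genes, and 43 of the 46 passed the filter on dim genes, under which a gene had to reach a log2 signal of 3.45 on at least 1 array. This dim limit is the lower quartile of all values and not a measured background. The names cyt1, evplb, dspb and lye were not matched and were not analysed here. The gene listed as krtt1c19e was found under its current name krt1-19e.

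Sleep deprivation was brought about by extended light, a daily cycle of 24 h light and 0 h dark that lasted 3 days. Fear conditioning was by inhibitory avoidance learning, in which an animal learns to hold back a response that is followed by an aversive event, and the light cycle of these fish is not stated. Naive fish lived on a daily cycle of 14 h light and 10 h dark. All fish were 6 months old and kept at 28 °C, and the labels name no strain, sex, genetic alteration, drug or number of fish per array. There was 1 array for each condition, and no difference below has a replicate check, an error or a test, and every value describes these 3 arrays. All signals are deposited values read as log2, and a difference is the log2 signal of the first array minus that of the second.

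Keratins are the intermediate filament proteins of epithelial cells, and they are anchored at desmosomes, the cell contacts built from cadherins, plakoglobin, plakophilins and plakins. Tight junctions, made of claudins, seal the paracellular space, and transcription factors of the p63 and Grainyhead-like families control the formation of the epidermis. Skin covers the fish's head and epithelium lines its mouth, while in the brain itself epithelial genes of this kind are known mainly from the choroid plexus, the ependyma and the coverings of the brain. In bulk RNA of this kind, fewer cells of a type and less RNA per cell cannot be told apart.

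The epithelial genes were mostly higher on the fear-conditioned array. The members were chosen with earlier results of these arrays known. Their counts here and below, set beside those of all named genes, are therefore a description and not independent evidence. Of the 43 members that passed the filter, 6 were at least 2-fold higher on the fear-conditioned than on the naive array, against 0.245% of 17958 named genes, and 0 were at least 2-fold lower, against 0.184%. The 6 were the keratins krt5 and krt97, the plakophilin pkp3a, the adhesion genes epcam and cdh1, and the mucin muc5.2. At a 1.5-fold threshold 14 members were higher (0.83% of named genes) and 0 lower (0.763%). The median log2 difference was 0.41 over the 43 members, and 0.33 over all 46 found, against 0.00 over all named genes.

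Sleep-deprived and naive arrays lay closer together for these genes. Only cdh1 was at least 2-fold lower in sleep-deprived than in naive fish, as were 0.668% of named genes, and 0 members were at least 2-fold higher, against 0.0947%. At 1.5-fold 3 members were lower (cdh1, agr1 and krt92), against 2.43% of named genes, and 0 were higher, against 0.484%. Of the 3, krt92 passed the filter on the naive array alone, so its place in this count follows in part from the filter. The median over the 43 members was -0.04 and the mean -0.19, and the median over all named genes was 0.00. Of the 43 members 26 had a difference below 0, 2 above 0 and 15 at 0. These are 60.5%, 4.7% and 34.9% of the members, against 30.9%, 24.8% and 44.3% of all named genes. Centring each array on its median adds a constant to every difference, which put the members' median at 0.00073 and that of all named genes at 0.04, so the members' median lay just below that of all genes on either scale.

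Sleep-deprived fish differed most from fear-conditioned fish. In sleep-deprived fish 12 of the 43 members were at least 2-fold lower than in fear-conditioned fish, against 0.869% of named genes, and 0 were at least 2-fold higher, against 0.134%. At 1.5-fold 17 were lower (2.71% of named genes) and 0 higher (0.562%). The median was -0.47 for the members and 0.00 for all named genes. Each difference in this comparison equals the sleep-deprived over naive difference minus the fear-conditioned over naive difference, and all 3 comparisons share arrays, so they are not independent of each other. As a yardstick, the central 90% of all named genes lay between -0.41 and 0.23 for sleep-deprived over naive, between -0.24 and 0.25 for fear-conditioned over naive, and between -0.41 and 0.22 for sleep-deprived over fear-conditioned. By construction each range leaves 5% of all named genes on either side. For sleep-deprived over naive 10 of the 43 members lay below the range and 1 above it. For fear-conditioned over naive 0 lay below and 26 above, and for sleep-deprived over fear-conditioned 25 below and 0 above.

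**Figure D1:**
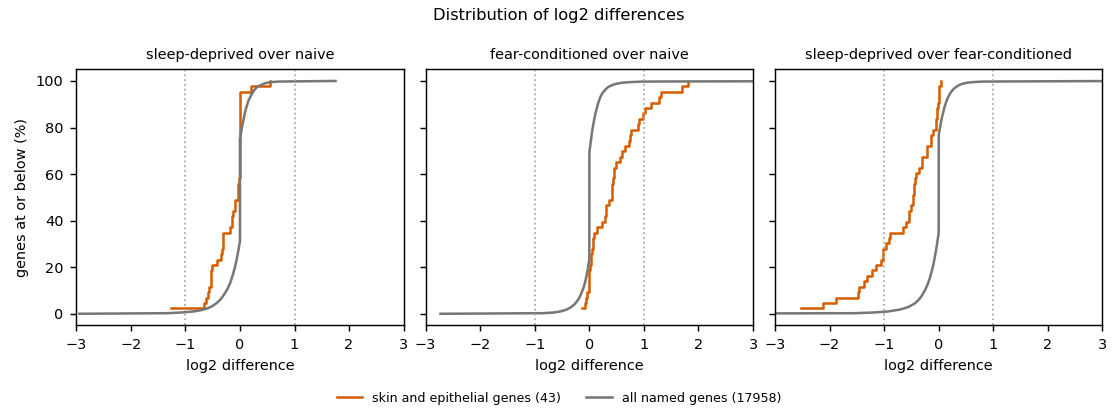
Cumulative share of genes (y axis, percent) at or below a log2 difference (x axis, cropped at -3 and 3) for 43 skin and epithelial genes (orange) and 17958 named genes (grey), with dotted lines at 2-fold. The orange curve lies right of the grey one for fear-conditioned over naive (median 0.41) and left of it for sleep-deprived over fear-conditioned (median -0.47).

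The highest signal of a member was rarely found on the sleep-deprived array. The fear-conditioned array alone held the highest value of 35 of the 43 members, which is 81.4%, against 20.1% of all named genes. The naive array alone held it for 4 members (15.6% of named genes) and the sleep-deprived array for 0 (16.1% of named genes). The same value on all 3 arrays was found in 3 members, krt18a.1, elf3 and st14a, against 34.2% of named genes. The lowest value stood on the sleep-deprived array alone for 25 members (58.1%, against 23.5% of named genes). These counts use the same values as the differences above and add no independent evidence.

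**Figure D2:**
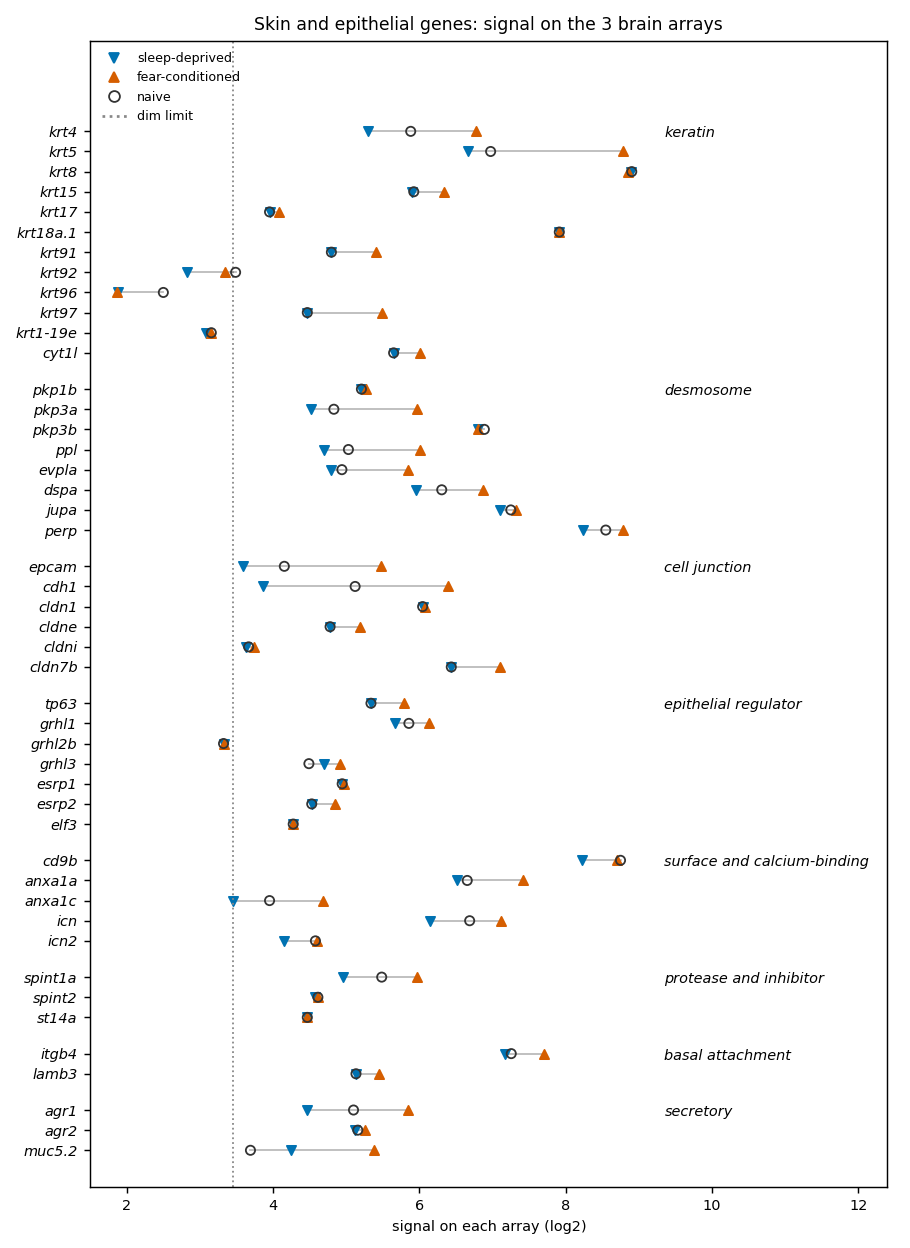
Log2 signal (x axis) of each of the 46 members found (rows, grouped by role) on the sleep-deprived (blue triangles), fear-conditioned (orange triangles) and naive (open circles) arrays, with the dim limit of 3.45 dotted. The spread between arrays is widest for cdh1, krt5 and epcam, whereas the 3 symbols coincide for krt18a.1, elf3, st14a and grhl2b.

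Among the keratins, 2 of the 10 that passed the filter were at least 2-fold higher on the fear-conditioned than on the naive array (0.245% of named genes). At 1.5-fold 4 were higher (0.83% of named genes), and the median difference was 0.38. The keratin krt5 had a signal of 6.67 in sleep-deprived, 8.79 in fear-conditioned and 6.97 in naive fish. This was a 3.51-fold higher signal in fear-conditioned than in naive fish, the 7th most positive difference of 17958 genes, and a 4.34-fold lower signal in sleep-deprived than in fear-conditioned fish. For krt4, a keratin of the outer epidermal layer, the signals were 5.302 in sleep-deprived, 6.78 in fear-conditioned and 5.88 in naive fish. Here the sleep-deprived value was low and the fear-conditioned one high, with log2 differences of -0.58 and 0.90 from naive and of -1.48 for sleep-deprived over fear-conditioned.

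In krt97 the sleep-deprived and naive arrays had the same value. To the last digit deposited, st14a had that value too, on all 3 arrays. The signal of krt97 was 4.47 in sleep-deprived, 5.49 in fear-conditioned and 4.47 in naive fish. This put it 2.04-fold higher in fear-conditioned than in naive fish, but the value shared with another gene leaves that size uncertain. The gene krt91 had the same pattern, with 4.80 in sleep-deprived, 5.405 in fear-conditioned and 4.80 in naive fish, but its probe sets disagreed. The first had 4.22 on all 3 arrays, and the second had a fear-conditioned over naive difference of 1.21. Smaller fear-conditioned over naive differences of 0.41, 0.35 and 0.14 were found in krt15, cyt1l and krt17, and the sleep-deprived over naive differences of these 3 were -0.02, 0.00 and 0.00.

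Keratins 8 and 18 pair in the filaments of simple epithelia, and neither gene followed krt5. The signal of krt8 was 8.90 in sleep-deprived, 8.86 in fear-conditioned and 8.90 in naive fish, and krt18a.1 had 7.91 on all 3 arrays. In the RefSeq gene table krt5, krt8 and krt18a.1 stand next to each other in this order, so the fear-conditioned over naive differences of these neighbours were 1.81, -0.05 and 0.00. The neighbours krt97 and krt96 also differed, but krt96 was below the dim limit on every array, with 1.88 in sleep-deprived, 1.86 in fear-conditioned and 2.50 in naive fish. So was krt1-19e, with 3.08 in sleep-deprived, 3.16 in fear-conditioned and 3.16 in naive fish. With 2.83 in sleep-deprived, 3.35 in fear-conditioned and 3.49 in naive fish, krt92 passed the filter on the naive array alone, so its lower values on the other arrays, with a sleep-deprived over naive difference of -0.66, follow in part from the filter. Several keratin genes are close relatives, and how much RNA of a related gene their probes detect was not tested.

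Of the 8 desmosome genes measured, 1 was at least 2-fold higher in fear-conditioned than in naive fish (0.245% of named genes). At 1.5-fold 3 were higher (0.83% of named genes), and the median was 0.39. The plakophilin gene pkp3a, which encodes an armadillo protein of the desmosomal plaque, had 4.51 in sleep-deprived, 5.97 in fear-conditioned and 4.83 in naive fish. The fear-conditioned signal was 2.20-fold above naive, and the sleep-deprived signal was 2.74-fold below fear-conditioned. Its paralogue pkp3b stayed within a narrow range, at 6.80 in sleep-deprived, 6.81 in fear-conditioned and 6.89 in naive fish.

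Periplakin and envoplakin are cytolinkers that tie keratin filaments to desmosomes and to the cell cortex. The periplakin gene ppl had 4.70 in sleep-deprived, 6.01 in fear-conditioned and 5.03 in naive fish. With a fear-conditioned over naive difference of 0.98, ppl stayed just short of 2-fold. Its 2 probe sets gave 1.06 and 0.90 for that difference but -0.58 and -0.08 for sleep-deprived over naive. The envoplakin gene evpla had 4.79 in sleep-deprived, 5.84 in fear-conditioned and 4.94 in naive fish, a fear-conditioned over naive difference of 0.90. Its probe sets agreed on the order of fear-conditioned over naive, at 0.81 and 0.99, and gave -0.77 and -1.33 for sleep-deprived over fear-conditioned. For sleep-deprived over naive they differed in sign, at 0.04 and -0.34.

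Desmoplakin links the desmosomal plaque to keratin, and its gene dspa had 5.96 in sleep-deprived, 6.87 in fear-conditioned and 6.31 in naive fish. The dspa signal was 1.87-fold lower in sleep-deprived than in fear-conditioned fish, with naive fish between. The membrane protein gene perp, a p63 target in mouse, had 8.23 in sleep-deprived, 8.78 in fear-conditioned and 8.55 in naive fish. The plakoglobin gene jupa, whose product is shared with adherens junctions, had fear-conditioned over naive differences of 0.15 and 0.00 in its 2 probe sets. The plakophilin pkp1b had 5.21, 5.27 and 5.21 in sleep-deprived, fear-conditioned and naive fish.

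**Figure D3:**
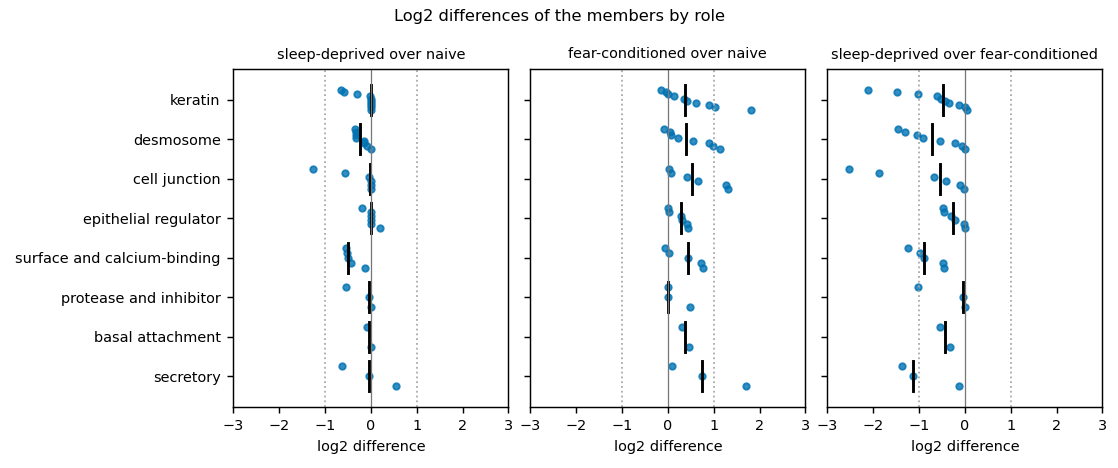
Log2 differences (x axis) of the 43 members that passed the filter, by role (rows), in the 3 comparisons. Points are genes, spread vertically by value, black bars are medians and dotted lines mark 2-fold. In fear-conditioned over naive the median is 0.74 for the 3 secretory genes, 0.54 for the 6 cell junction genes and 0.00 for the 3 protease and inhibitor genes.

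Of all members the cell junction gene cdh1 had the widest spread between arrays. E-cadherin, the calcium-dependent adhesion protein of epithelial adherens junctions, is encoded by cdh1, which had 3.87 in sleep-deprived, 6.40 in fear-conditioned and 5.12 in naive fish. The 3 arrays were evenly spaced, with cdh1 2.39-fold lower in sleep-deprived and 2.42-fold higher in fear-conditioned than in naive fish. Between sleep-deprived and fear-conditioned fish cdh1 was 5.77-fold lower, the 6th most negative difference of 17958 genes. Its sleep-deprived signal of 3.87 was not far above the dim limit of 3.45, so the sizes of the differences that use it are uncertain.

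The cell adhesion gene epcam, a marker of most epithelia, gave a like picture with a smaller deficit in sleep deprivation. Its signal was 3.59 in sleep-deprived, 5.47 in fear-conditioned and 4.15 in naive fish. The fear-conditioned signal was 2.49-fold above naive (the 15th most positive difference), and the sleep-deprived over naive difference was -0.57. The sleep-deprived signal lay close to the dim limit, which makes the size of that difference uncertain.

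The 4 claudins of the list did not move alike. The signal of cldn7b was 6.44 in sleep-deprived, 7.10 in fear-conditioned and 6.44 in naive fish, and cldne had 4.78 in sleep-deprived, 5.19 in fear-conditioned and 4.78 in naive fish. In both claudins the sleep-deprived value equalled the naive one. For cldn1, which encodes a barrier-forming claudin of mammalian epidermis, and cldni, the largest difference between any 2 arrays was 0.11 in size.

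Epithelial regulators had a median fear-conditioned over naive difference of 0.30. Past 1.5-fold there were 0 of 6 in any comparison. The shares of all named genes ran from 0.484% to 2.71% by comparison and direction, so this count says little about the regulators. The gene tp63, which encodes p63, the transcription factor of basal keratinocytes, had 5.34 in sleep-deprived, 5.79 in fear-conditioned and 5.34 in naive fish. Grainyhead-like factors control barrier formation and repair, and their genes did not share an order. Of these, grhl1 had 5.67 in sleep-deprived, 6.14 in fear-conditioned and 5.86 in naive fish. In grhl3 the naive value was the lowest, with 4.70 in sleep-deprived, 4.91 in fear-conditioned and 4.49 in naive fish. The 2 probe sets of grhl2b had constant values of 4.28 and 2.36 on all 3 arrays. The second of them and their mean of 3.32 were below the dim limit, while with its brightest probe set grhl2b passed the filter. Among splicing regulators of epithelial cells, esrp2 had a fear-conditioned over naive difference of 0.31 and esrp1 of 0.03. The ETS factor gene elf3 was at 4.28 on all 3 arrays.

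Surface and calcium-binding genes had the lowest median of the 8 role groups in sleep-deprived over naive fish, at -0.50 over 5 genes. In that comparison 0 of the 5 were past 1.5-fold, against 2.43% of named genes lower and 0.484% higher. The annexin gene anxa1a, which encodes a calcium-dependent phospholipid-binding protein, had 6.52 in sleep-deprived, 7.41 in fear-conditioned and 6.66 in naive fish. Its relative anxa1c had 3.45 in sleep-deprived, 4.68 in fear-conditioned and 3.95 in naive fish. In both annexins the fear-conditioned array was at least 1.5-fold above naive, with differences of 0.76 and 0.73. The sleep-deprived signal of anxa1c, 3.448, was just below the dim limit of 3.455. The size of its sleep-deprived over fear-conditioned difference of -1.23, counted above as past 2-fold, is therefore uncertain.

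The ictacalcin genes icn and icn2 encode S100-type calcium-binding proteins and stand next to each other in the RefSeq gene table. The signal of icn was 6.15 in sleep-deprived, 7.12 in fear-conditioned and 6.69 in naive fish. That of icn2 was 4.15 in sleep-deprived, 4.60 in fear-conditioned and 4.58 in naive fish. Both were lower in sleep-deprived than in naive fish, by differences of -0.54 and -0.43. Their fear-conditioned over naive differences were 0.43 for icn and 0.02 for icn2. The tetraspanin gene cd9b was unlike most members in that its highest value was the naive one, with 8.23 in sleep-deprived, 8.70 in fear-conditioned and 8.75 in naive fish.

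In the matriptase system, a membrane serine protease is held in check by Kunitz-type inhibitors at the epithelial surface. The inhibitor gene spint1a had 4.95 in sleep-deprived, 5.97 in fear-conditioned and 5.49 in naive fish, and was 2.02-fold lower in sleep-deprived than in fear-conditioned fish. With centring this difference was -0.97, short of 2-fold. The protease gene st14a had 4.47 on all 3 arrays, and the second inhibitor gene, spint2, had 4.57 in sleep-deprived, 4.61 in fear-conditioned and 4.61 in naive fish. Within this system only the signal of spint1a differed by more than 0.05 between arrays.

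Basal attachment was covered by itgb4, the integrin beta4 subunit of hemidesmosomes, and lamb3, a chain of the laminin beneath the epidermis. The signal of itgb4 was 7.17 in sleep-deprived, 7.71 in fear-conditioned and 7.26 in naive fish, and that of lamb3 was 5.13 in sleep-deprived, 5.45 in fear-conditioned and 5.13 in naive fish. Both were highest on the fear-conditioned array by less than 1.5-fold.

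Of the 3 secretory genes, muc5.2 and agr1 had opposite signs in sleep-deprived over naive fish. The gel-forming mucin gene muc5.2 had 4.24 in sleep-deprived, 5.39 in fear-conditioned and 3.69 in naive fish. It was the only member more than 0.5 higher in sleep-deprived than in naive fish, at 0.55, and it was 3.24-fold higher in fear-conditioned than in naive fish, the 8th most positive difference. Its naive signal lay close to the dim limit, so the size of both is uncertain. The gene agr1, of a family of endoplasmic reticulum proteins found in mucus-secreting cells, had 4.47 in sleep-deprived, 5.84 in fear-conditioned and 5.1004 in naive fish. Unlike muc5.2, agr1 was lowest in sleep-deprived fish, by a difference of -0.63 from naive. Its relative agr2 had 5.12 in sleep-deprived, 5.25 in fear-conditioned and 5.16 in naive fish.

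Other epithelial genes outside the 50 names gave mostly small differences. Past 1.5-fold, the shares of all named genes ran from 0.484% to 2.71% by comparison and direction. Counts of 0 or 1 in the short lists below are near such shares and say little about these genes. Of 7 further keratins that passed the filter, 0 were past 1.5-fold in any comparison, and krt18b had the largest differences from naive, at -0.52 in sleep-deprived and -0.48 in fear-conditioned fish. Among 16 further junction genes, 1 was at least 2-fold higher in fear-conditioned than in naive fish, against 0.245% of named genes. This was the claudin cldnb, with 5.04 in sleep-deprived, 6.75 in fear-conditioned and 5.72 in naive fish, and its log2 differences were -0.68, 1.04 and -1.72 for sleep-deprived over naive, fear-conditioned over naive and sleep-deprived over fear-conditioned. The desmoglein gene dsg2.1 had a sleep-deprived over naive difference of -0.61. In sleep-deprived over fear-conditioned 3 of the 16 were at least 1.5-fold lower, against 2.71% of named genes. These were cldnb, dsg2.1 (-0.81) and f11r.1 (-0.77). Neither the 12 further regulators, among them gata3, klf17 and znf750, nor the 9 basement membrane genes, among them itga6b and col17a1b, had a gene past 1.5-fold in any comparison. Among 18 further surface, secreted and protease genes, 1 was at least 2-fold higher in sleep-deprived than in naive fish, against 0.0947% of named genes. This was s100s, which encodes an S100 calcium-binding protein, at 1.63. It was also the only 1 of the 18 at least 2-fold higher in sleep-deprived than in fear-conditioned fish, at 1.30, against 0.134%. The lowest differences of that list in sleep-deprived over naive were those of anxa3b (-0.52) and the mucin muc5.1 (-0.51). In fear-conditioned over naive anxa3b was at -0.50. Of 10 ionocyte genes only the ammonia transporter gene rhcgb was past 1.5-fold, with 7.64 in sleep-deprived, 6.43 in fear-conditioned and 6.79 in naive fish. Across these further epithelial lists cldnb was the only gene at least 1.5-fold higher in fear-conditioned than in naive fish (0.83% of named genes). At least 1.5-fold lower were 0 (0.763% of named genes). The junction gene f11r.1, at 0.584, fell just short of that threshold of 0.585 in log2. The names of the members and of the other lists were chosen with earlier results of these arrays known.

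Markers of some other tissues were higher on the same array. Over all named genes, 0.245% were at least 2-fold higher in fear-conditioned than in naive fish. In the tooth and bone matrix list 4 of 13 genes were at least 2-fold higher in fear-conditioned than in naive fish, with a median of 0.37. Of the 13, 8 differed by less than 1.5-fold and 4 of these had a difference of 0. The summed linear signal of the list was 388 in sleep-deprived, 1123 in fear-conditioned and 383 in naive fish. This sum leans on the secretory calcium-binding phosphoprotein gene scpp7, the brightest of the list on the fear-conditioned array. Its signal was 3.22 in sleep-deprived, 8.85 in fear-conditioned and 3.57 in naive fish. The gene ambn, which encodes the enamel matrix protein ameloblastin, had 4.83 in sleep-deprived, 7.24 in fear-conditioned and 4.70 in naive fish. In the meninges and fibroblast list 3 of 12 genes were at least 2-fold higher, all of them type I collagen genes, with a list median of 0.09 and summed signals of 1504 in sleep-deprived, 2139 in fear-conditioned and 1606 in naive fish. At 1.5-fold 4 of these 12 genes were higher, against 0.83% of named genes, and the other 8 differed by less. The list members lum and ogna were below the dim limit on every array. In skeletal muscle 2 of 16 genes were at least 2-fold higher, ckma (1.21) and pvalb2 (1.42), with a median of 0.00, and the fast myosin gene myhz2 and the troponin gene tnnt3a were below the limit on every array. The naive signals of pvalb2 (3.48), scpp7 (3.57) and the tooth and bone gene col10a1a (3.57, with a difference of 2.73) lay close to the dim limit. On the sleep-deprived array pvalb2 (3.37) and scpp7 (3.22) lay below it. The sizes of the differences of these genes are therefore uncertain. The summed muscle signal was 408 in sleep-deprived, 487 in fear-conditioned and 407 in naive fish. Their part in the epithelial differences was not tested, and carry-over of head tissue cannot be told apart from the conditions with 1 array each.

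The medians of other lists lay close to 0. Fear-conditioned over naive medians were 0.00 for 12 pigment cell genes, for 9 genes of neutrophils and skin leukocytes, for 6 of the olfactory epithelium and for 7 of the pituitary, -0.01 for 10 of the ependyma and choroid plexus and 0.08 for 5 of lens and retina. In these 6 lists the leukocyte gene ptprc (0.86) was the only one at least 1.5-fold higher in fear-conditioned than in naive fish (0.83% of named genes). Brain cell markers were well measured on all arrays, with 14 neuron, 11 radial astroglia and 7 oligodendrocyte genes above the dim limit. Their fear-conditioned over naive medians were 0.03, 0.00 and 0.01, and their sleep-deprived over naive medians 0.03, 0.00 and -0.13. The radial astroglia gene gfap, which encodes an intermediate filament protein, had the same order of the 3 arrays as cdh1, with 7.39 in sleep-deprived, 9.05 in fear-conditioned and 8.30 in naive fish. Its differences were -0.91, 0.76 and -1.66 for sleep-deprived over naive, fear-conditioned over naive and sleep-deprived over fear-conditioned. The aromatase gene cyp19a1b was at -0.87 in sleep-deprived and -0.10 in fear-conditioned over naive fish. Whether these differences are related to those of the epithelial genes was not tested.

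**Figure D4:**
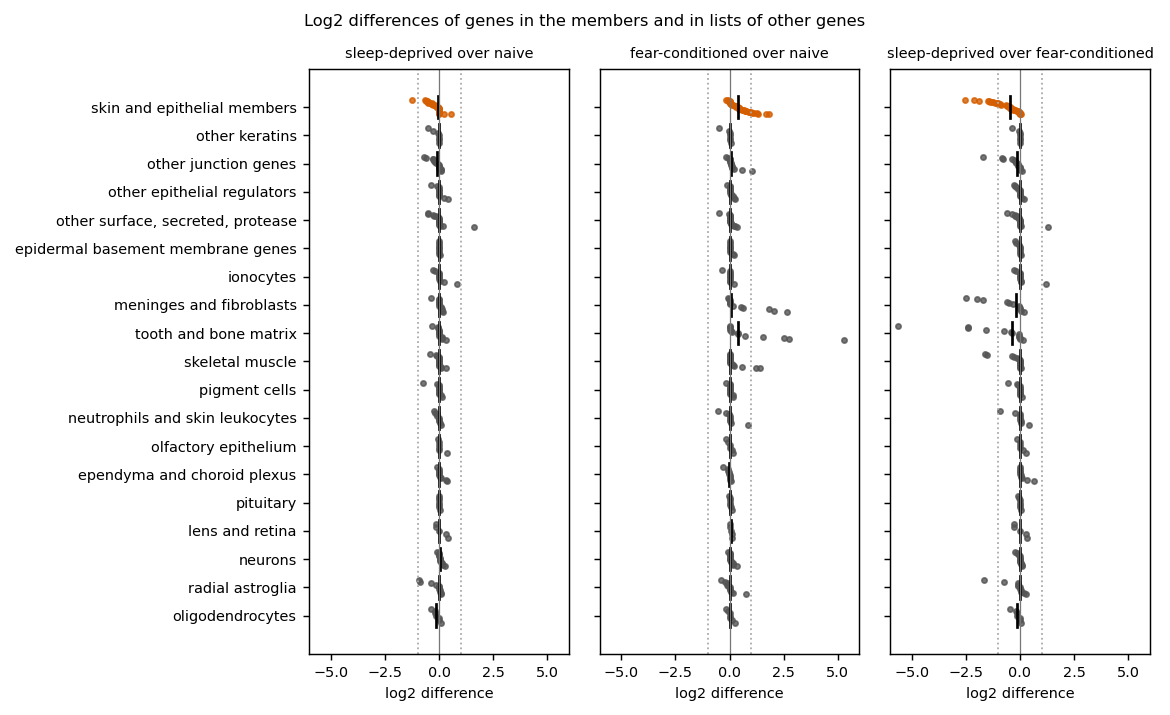
Log2 differences (x axis) of the 43 epithelial members (orange, top row) and of genes in 18 other lists (grey) in the 3 comparisons, with medians as black bars and 2-fold dotted. In fear-conditioned over naive the points past 2-fold lie in the members (6), other junction genes (1), meninges and fibroblasts (3), tooth and bone matrix (4) and skeletal muscle (2).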

How the data were processed

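Biotin-labelled sense cDNA from brain RNA was hybridised to 1 array per condition, per the labels' protocols. Only the deposited table of values was used. The deposited values range between 0.61 and 13.4 and are taken to be log2 signals, as the base is not stated. The authors' arrays have equal medians of 4.99, so a shift of all genes in 1 direction cannot be seen. How the authors normalized them is not stated.

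Of 75212 probe sets, 20806 had 1 gene symbol in the platform annotation, 855 had several and 53551 none. Symbols were updated through Entrez identifiers in a RefSeq table (GRCz12tu) for 20323 probe sets. As no array build is given, coordinates are left out. Probe sets of a gene were averaged, giving 19260 genes, of which 17958 reached the dim limit of 3.45. Differences were taken as deposited and counted at 2-fold and 1.5-fold, with no test. Members and lists were chosen with earlier results of these data known. All members found were named; of other lists up to 4 genes with large differences were named. The counting step was tested on simulated data. Python 3.11.15, pandas 2.3.3 and statsmodels 0.14.6 were used. Alternatives were centring, quantile normalization, a lowess trend (fraction 0.3), the brightest probe set, other dim filters, a floor at the dim limit, a 1.5-fold threshold, the mean, and the median without keratins.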

Additional observations from a re-analysis of the deposited data

How the results depend on the processing

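The counts of members at least 2-fold apart were 1 in sleep-deprived over naive under each of the 7 scaling, probe set and filter alternatives, 6 or 7 in fear-conditioned over naive and 10 to 12 in sleep-deprived over fear-conditioned. The 1.5-fold threshold, by its construction, gave 3, 14 and 17. The median of sleep-deprived over naive, -0.04, was 0.00073 with each array centred on its median (a constant added to all differences, which moved the median of all named genes to 0.04), and its mean was -0.19. For sleep-deprived over fear-conditioned the median of -0.47 was -0.58 with the filter at the median of all values, which kept 32 members, and the mean was -0.65. The fear-conditioned over naive median ran from 0.33 without a filter to 0.46 as a mean. For single genes, krt91 passed 2-fold with its brightest probe set (1.21 in fear-conditioned over naive), while krt97 (-0.98 with centring), spint1a (-0.97 with centring) and ppl (-0.97 with its brightest probe set) fell short in sleep-deprived over fear-conditioned. No paired analysis was possible because each group had 1 array.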

Other observations

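Exactly equal values on different arrays were common. Of 52 probe sets of the members, 20 (38.5%) were equal between sleep-deprived and naive fish, against 47.2% of 20806 named probe sets. For fear-conditioned and naive arrays 10 (19.2%) were equal, against 49.2%, and 8 (15.4%) were equal on all 3 arrays, against 37.0%. Members whose sleep-deprived value equalled the naive one to the last digit deposited while the fear-conditioned value was higher included krt97, cldn7b, cldne, tp63, esrp2 and lamb3. Equal values also occurred between different genes. The value 4.46883 stood on the sleep-deprived and naive arrays for krt97 and on all 3 arrays for st14a. For krt17 the sleep-deprived and naive value was 3.95252, which was also the naive value of anxa1c. How the deposited values came to be equal was not tested.

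The median of fear-conditioned over naive was above 0 among both dimmer and brighter members. Members with a mean signal below 5.23, the median over the 43 members, had a fear-conditioned over naive median of 0.41 over 21 genes, and those at or above it a median of 0.38 over 22 genes. In sleep-deprived over naive the medians were -0.04 and -0.11, and all 3 members at least 1.5-fold lower were among the 21 dimmer genes, against 0 of the 22 brighter ones. Of the 3, krt92 passed the filter on the naive array alone, and with values floored at the dim limit its difference was -0.03. The share of dimmer and of brighter named genes past 1.5-fold was not counted, so nothing is concluded from this split.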
